A study of Homo sapiens with 15 samples.

Results

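The high mobility group (HMG) genes code for abundant small chromatin proteins, and the 10 members described here are HMGA1, HMGA2, HMGB1, HMGB2, HMGB3, HMGN1, HMGN2, HMGN3, HMGN4 and HMGN5. They are the rows of the count table whose Ensembl identifier maps to these symbols, a rule by name that was set with earlier results of these data known. Each symbol matched 1 row, so the members are 10 of 57736 genes in the table, and all 10 had counts and were among the 13516 genes that passed the filter on low counts. Messenger RNA 3′ ends were sequenced from IMR90 cells, a human fetal lung fibroblast line, in 5 groups of 3 libraries. The R298P add-back group expressed oncogenic RAS from a retrovirus, was given siRNA against METTL14, and received a lentivirus coding for METTL14 with an R298P substitution. The wild-type add-back group was treated alike but received wild-type METTL14. The knockdown group had RAS, the METTL14 siRNA and no METTL14 added back (the labels mark it as vector). The siControl RAS group had RAS and a non-targeting siRNA, and the control group had the empty retrovirus and the non-targeting siRNA. The 4 RAS groups are labelled senescent. Cells were first transfected on day 4 after the retrovirus, again a day later together with the lentivirus, and harvested 48 hours after that. Knockout and knock-in are the words of the genotype labels, but the treatment text describes siRNA and lentivirus and is followed here. Which RAS isoform was used, and whether siControl RAS cells received an empty lentivirus, is not given. Nothing in the labels says that replicates are separate cultures, so p-values measure the spread between libraries, which may be technical.

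The 3 HMG families bind DNA or nucleosomes without reading a specific sequence. HMGA proteins hold the minor groove of AT-rich DNA through AT hooks, HMGB proteins bend DNA through HMG boxes followed by an acidic tail, and HMGN proteins bind the nucleosome core and loosen packing by linker histones. METTL14 is a partner subunit of the METTL3 writer of N6-methyladenosine on RNA. In senescent fibroblasts HMGA proteins are known as components of condensed heterochromatin foci, HMGB1 as a nuclear protein that leaves the nucleus and is secreted, and HMGB2 as a chromatin factor at secretory genes.

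Library totals ran from 4917661 to 7763084 counts. Levels below are normalised CPM, the tags of a gene scaled to library size with the trimmed mean of M values, and 1 tag is worth 0.129 to 0.203 CPM before that adjustment. Differences are log2 fold changes with their standard error (SE) from edgeR's quasi-likelihood test over all 15 libraries, and calls use the Benjamini-Hochberg method over 13516 genes, at an adjusted p under 0.05. METTL14 averaged 945 ± 80.4 CPM in the R298P add-back, 545 ± 32.0 CPM in the wild-type add-back, 6.08 ± 2.88 CPM in the knockdown, 22.0 ± 3.66 CPM in siControl RAS and 21.2 ± 2.11 CPM in control cells (SD, n = 3 each). The knockdown thus kept 3.77-fold less METTL14 than siControl RAS, with both add-backs far above every other group and the R298P group 1.73-fold above the wild-type one (adjusted p = 0.0322). All 9 fibroblast markers were detected, with a summed level of 19771 to 20852 CPM in the R298P add-back, 20336 to 21641 in the wild-type add-back, 18025 to 18789 in the knockdown, 21836 to 22833 in siControl RAS and 10592 to 10771 in control libraries. COL1A1 and COL1A2 make up most of this sum in the RAS groups, and 7 of the 9 were called higher in siControl RAS against control, whereas VIM (log2 -1.04) and THY1 (-0.52) were called lower. Of all genes tested, 24% were called higher and 21.9% lower there. In the knockdown against siControl RAS, VIM (0.45) and THY1 (0.43) were the 2 called higher and 4 were called lower. Of all genes, 7.47% were called higher and 8.06% lower in that comparison. Markers of other cell types were low. The 7 epithelial markers summed to 62.0 to 69.7 CPM in the R298P add-back, 70.7 to 80.8 in the wild-type add-back, 78.7 to 89.0 in the knockdown, 34.9 to 52.7 in siControl RAS and 119 to 128 CPM in control, the same order of groups as HMGA1 and HMGA2. Of the 4 epithelial markers tested, KRT18 and KRT19 were called lower in siControl RAS against control (log2 -1.41 and -2.31) and higher in the knockdown against siControl RAS (1.12 and 1.23). The part of these markers in the HMG values was not tested. Over the 15 libraries 4 endothelial markers summed to 13.6 to 39.6 CPM and 5 leukocyte markers to 2.96 to 23.7 CPM. CDH1, KRT5, KRT14, CDH5, CD3E and MS4A1 had no count in any library. Knockdown replicate 1 stood apart on the third principal component (4.97% of the variance), at 40.8 against -20.2 to 7.41 for the other 14 libraries. On the fourth (4.53%), replicate 3 of siControl RAS and of both add-backs stood at -23.1 to -17.5, against -4.86 to 21.7 for the other 12. In these bulk samples, fewer cells of a type and less RNA per cell cannot be told apart.

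HMG transcripts fell by more than their replicate spread in RAS cells. The 10 members summed to 2254 ± 53.8 CPM in the R298P add-back, 2445 ± 52.6 in the wild-type add-back, 2584 ± 113 in the knockdown, 2004 ± 42.2 in siControl RAS and 5264 ± 120 in control cells (SD, n = 3 each). In siControl RAS against control, 8 of the 10 members fell, where 21.9% of all genes tested were called lower. The member median was -1.27 (log2) against -0.0037 over all genes. HMGN4 and HMGN5 were the members without a call. The same 8 members lay below control in every siControl RAS library, as did 26.6% of all genes tested. Scaling by library totals alone moves the median of all genes to -0.15 in this comparison, and the same 8 members were called lower there too.

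**Figure D1:**
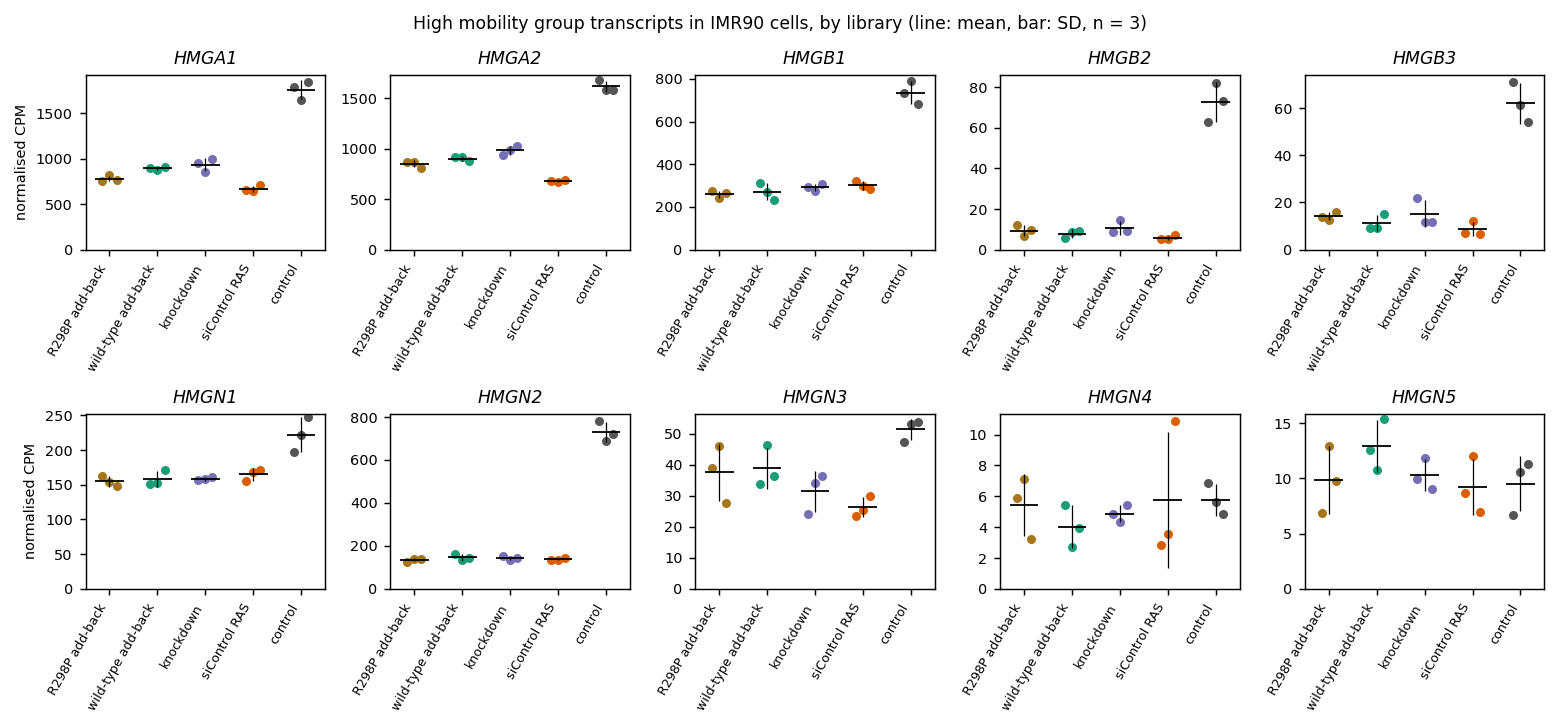
Level of each of the 10 HMG transcripts in normalised CPM (vertical axes, linear, from 0, a scale of its own for each gene) in the R298P add-back, wild-type add-back, knockdown, siControl RAS and control groups. Points are the 3 libraries of a group, horizontal lines the mean and vertical bars the SD. The RAS groups sit below control for 8 genes, with HMGN2 at 135 to 146 CPM against 730 CPM on average, while HMGN4 and HMGN5 overlap in all groups.

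HMGA1 and HMGA2 held the highest levels of the 10 members on their own rows. With its pseudogene rows added, HMGB1 would stand at 742 to 787 CPM in siControl RAS and 1754 to 1830 CPM in control, above or among them. As the method counts about 1 tag per transcript end, CPM values are compared between genes without a length correction. HMGA1, an AT-hook architectural protein of proliferating and transformed cells, had 656, 640 and 707 CPM in the siControl RAS libraries, against 1793, 1644 and 1846 CPM in the control libraries. Every RAS library was thus far below every control library, a 2.64-fold drop (log2 -1.40, SE 0.06, adjusted p = 2.25e-19). HMGA2, the fetal AT-hook protein whose message is a let-7 target, had 684, 667 and 684 CPM in siControl RAS and 1682, 1584 and 1577 CPM in control libraries. Its RAS libraries lay within a narrow range, 2.38-fold below control (log2 -1.25, SE 0.06, adjusted p = 1.97e-19). The opposite-strand pseudogene RPSAP52 overlaps HMGA2, and whether counting used strand is not given, but RPSAP52 held 186 counts over all libraries, against 89339 for HMGA2.

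HMGB2 and HMGB3 had the largest fold drops of the 10 members. HMGB2, an HMG-box protein of cycling cells, had 5.31, 5.06 and 6.95 CPM in siControl RAS, against 62.8, 82.2 and 73.4 CPM in control. These levels rest on 27 to 39 tags per RAS library. The difference was 12.6-fold (log2 -3.65, 95% interval -4.17 to -3.14, adjusted p = 1.99e-14). HMGB3, an X-linked HMG-box protein known in mouse from blood progenitor cells, had 6.95, 12.2 and 6.77 CPM in siControl RAS and 70.9, 61.1 and 53.9 CPM in control. Replicate 2 was the highest of the RAS libraries, yet the groups did not overlap, and the drop was 7.24-fold (log2 -2.86, SE 0.25, adjusted p = 2.55e-11). HMGB1, the ubiquitous member that also acts as an alarmin outside cells, had 321, 297 and 283 CPM in siControl RAS, against 733, 793 and 682 CPM in control. It fell 2.45-fold (log2 -1.29, SE 0.08, adjusted p = 1.36e-14), close in size to the HMGA genes and smaller than its paralogs.

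The HMGB1 value may depend on how tags were shared out among near-identical gene copies, which was not examined. Of 47 pseudogene rows of HMGB1, 21 had counts, and together they held 56.0% to 69.1% of the HMGB1 family's tags, depending on the library. Nearly all of these lay on HMGB1P5, a processed copy on chromosome 3, whereas HMGB1 itself is on chromosome 13. Its shorter transcript matched an HMGB1 transcript at 99.1% over 638 bases with 6 mismatches, all within the coding sequence of HMGB1 (GENCODE 29). Counted from 1 at the A of the HMGB1 start codon, with the HMGB1 base first, they are A195G, C293T, T465C, T621A, A627T and A630T. The longer transcript of the copy matched at 97.9% over 984 alignment columns. Tags come from the 3′ ends of messages, and where they fell on these transcripts was not examined. The coding bases therefore need not be where tags were counted. Coding bases 519 to 638 of HMGB1 run into the acidic tail. They and the same stretch of the copy are printed here, 5′ to 3′ and with the 3 differing bases in capitals:
HMGB1: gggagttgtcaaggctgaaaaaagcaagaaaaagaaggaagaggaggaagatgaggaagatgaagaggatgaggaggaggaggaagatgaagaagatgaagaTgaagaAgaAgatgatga
HMGB1P5: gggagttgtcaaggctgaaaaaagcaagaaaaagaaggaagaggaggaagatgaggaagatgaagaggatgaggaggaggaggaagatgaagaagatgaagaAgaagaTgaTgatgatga

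HMGB1P5 carried more tags than its parent in every library. It had 412, 463 and 573 CPM in the R298P add-back, 483, 502 and 501 in the wild-type add-back, 531, 485 and 441 in the knockdown, 456, 425 and 471 in siControl RAS, and 1084, 997 and 1064 CPM in control. The copy thus lay below control in every RAS library, as HMGB1 did. Among the RAS groups the order of means was not shared, with siControl RAS the highest for HMGB1 (300 CPM) and the lowest for HMGB1P5 (451 CPM). In siControl RAS against control the copy fell 2.33-fold (log2 -1.22, SE 0.09, adjusted p = 1.01e-11). HMGB1P5 made up 60.1% to 68.4% of the pair in R298P add-back libraries, 60.7% to 68.2% in wild-type add-back, 59.0% to 64.6% in knockdown, 58.7% to 62.5% in siControl RAS and 55.7% to 60.9% in control libraries. With all pseudogene rows added to HMGB1, the log2 difference was -1.22 in place of -1.29. Which of the rows the RNA came from cannot be read from this table, so the level of HMGB1 is uncertain and its direction in RAS cells is the same on either row. For HMGN1, 32 pseudogene rows held 25.3% to 37.1% of the family's tags, most of them on HMGN1P38. For the other members pseudogenes held at most 4.70% of the family's tags over all libraries, the HMGB3 share reaching 19.8% in 1 library.

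**Figure D2:**
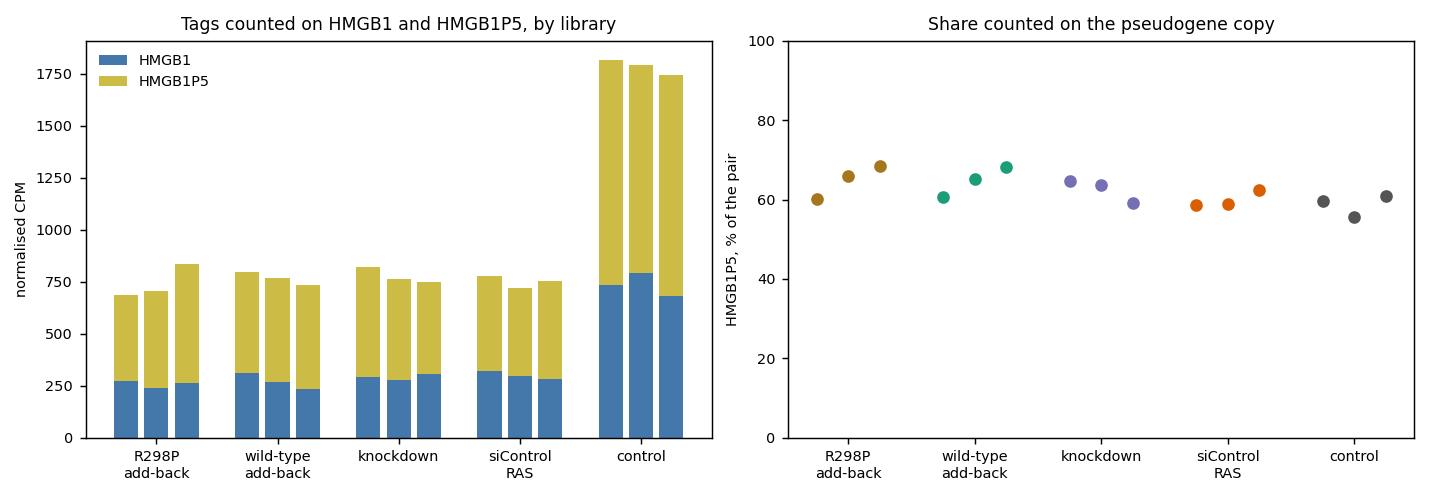
Left, tags counted on HMGB1 (lower part of each bar) and on its copy HMGB1P5 (upper part) in normalised CPM, 1 bar per library, replicates 1 to 3 from left to right in the R298P add-back, wild-type add-back, knockdown, siControl RAS and control groups. Right, the share of the pair counted on HMGB1P5 in the same libraries, in percent, from 55.7% to 68.4%, above the midpoint in all 15.

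Among the HMGN genes the change was uneven. HMGN2, a ubiquitous nucleosome-binding protein, had 134, 134 and 142 CPM in siControl RAS, against 782, 686 and 721 CPM in control. The groups lay far apart, and the drop was 5.34-fold (log2 -2.42, 95% interval -2.58 to -2.25, adjusted p = 3.79e-23). HMGN1, its close relative encoded on chromosome 21, had 155, 168 and 172 CPM in siControl RAS and 197, 222 and 247 CPM in control. The groups were next to each other without overlap, and HMGN1 fell 1.35-fold (log2 -0.43, SE 0.09, adjusted p = 8.74e-05). HMGN3, which has long and short splice forms that a 3′ tag need not separate, had 23.4, 25.5 and 29.8 CPM in siControl RAS, against 47.4, 53.0 and 53.6 CPM in control. That was a 1.96-fold drop (log2 -0.97, SE 0.18, adjusted p = 2.82e-05).

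HMGN4 and HMGN5 were the lowest of the HMGN genes and did not pass the test. HMGN4, an intronless relative of HMGN2, ranged from 2.86 to 10.9 CPM in siControl RAS and from 4.82 to 6.88 CPM in control, on 19 to 61 tags a library. The siControl RAS spread came from replicate 3 at 10.9 CPM, the highest of all 15 libraries. The 95% interval of its log2 difference ran from -0.92 to 0.90 (adjusted p = 0.986). HMGN5, an X-linked member with a long acidic tail, ranged from 6.95 to 12 CPM in siControl RAS and from 6.72 to 11.3 CPM in control. Its interval ran from -0.67 to 0.57 (adjusted p = 0.913), so a change as large as that of HMGN3 or the HMGA genes lies outside the HMGN5 interval but not one of the size seen for HMGN1. For HMGN4 the interval is wider, and a drop of up to 0.92 log2 units lies within it.

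Promoters are shown for members that fell and for 1 without a call. A missing call does not show that HMGN4 and HMGN5 moved differently from the rest. RefSeq windows on GRCh38.p14, from 250 bases before to 50 after an annotated start, were matched for 8 of the 10 members. HMGA2 and HMGB2 had no entry. Of the 8 members' windows (the first listed where there were several), 6 held the letters CCAAT on either strand, the core bound by NF-Y, as did 35.7% of the first-listed windows of 27305 genes. They were those of HMGA1, HMGB1, HMGB3, HMGN1, HMGN2 and HMGN3, whereas the windows of HMGN4 and HMGN5 held no match. For HMGN2 and HMGN4 the bases after the annotated start were not found near the start of a GENCODE 29 transcript. Whether these windows are the promoters in use is thus less certain. The letters TTTGAA, the cell cycle homology region, were found in the first window of HMGB3 (15.4% of genes) and in the second-listed window of HMGB1, and GGCGGGAA, an E2F-type site, was found in none of the members' 12 windows (3.18% of genes). Both strands were searched and no matches overlapped. Such matches describe letters in a window and are not binding sites. The windows of HMGB3 and HMGN2, which fell most among the members with an entry, of HMGB1, with 3 CCAAT matches, and of HMGN5, with none, are printed 5′ to 3′ in the direction of transcription with the matches in capitals (ATTGG is CCAAT on the other strand):
HMGB3, chrX:150983085-150983384, plus strand: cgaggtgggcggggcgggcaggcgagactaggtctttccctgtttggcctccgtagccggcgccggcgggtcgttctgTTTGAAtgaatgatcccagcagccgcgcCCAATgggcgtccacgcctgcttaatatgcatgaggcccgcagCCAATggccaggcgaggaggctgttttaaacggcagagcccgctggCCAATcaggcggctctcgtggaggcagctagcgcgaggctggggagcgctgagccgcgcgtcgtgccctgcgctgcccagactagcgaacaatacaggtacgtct
HMGN2, chr1:26472190-26472489, plus strand: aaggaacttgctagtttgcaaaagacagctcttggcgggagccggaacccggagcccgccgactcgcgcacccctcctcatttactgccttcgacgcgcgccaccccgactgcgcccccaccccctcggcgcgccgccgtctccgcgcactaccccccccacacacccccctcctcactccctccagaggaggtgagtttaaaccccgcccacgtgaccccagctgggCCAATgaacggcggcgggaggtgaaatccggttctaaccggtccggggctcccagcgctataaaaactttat
HMGB1, chr13:30465887-30466186, minus strand: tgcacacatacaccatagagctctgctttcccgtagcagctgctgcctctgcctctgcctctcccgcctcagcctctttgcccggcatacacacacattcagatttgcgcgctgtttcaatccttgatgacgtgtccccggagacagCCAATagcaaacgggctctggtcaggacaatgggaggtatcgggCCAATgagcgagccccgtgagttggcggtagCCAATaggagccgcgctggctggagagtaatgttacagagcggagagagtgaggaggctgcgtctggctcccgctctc
HMGN5, chrX:81201864-81202163, minus strand: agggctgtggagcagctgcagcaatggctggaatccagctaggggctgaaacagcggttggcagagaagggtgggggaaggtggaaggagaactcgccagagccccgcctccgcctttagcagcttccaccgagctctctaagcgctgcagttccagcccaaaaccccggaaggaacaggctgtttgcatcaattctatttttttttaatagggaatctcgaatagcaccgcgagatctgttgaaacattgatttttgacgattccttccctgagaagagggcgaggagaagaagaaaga

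METTL14 knockdown in RAS cells went with higher HMGA1, HMGA2, HMGB2 and HMGB3, and none of these came back to the control level. Against siControl RAS, 4 of the 10 members were called higher in the knockdown, where 7.47% of all genes were called higher. The member median was 0.22 (log2) against -0.0028 over all genes. HMGA1 had 955, 852 and 1002 CPM in the knockdown, against 656, 640 and 707 CPM in siControl RAS. Each knockdown library was above each siControl RAS library, and HMGA1 was 1.40-fold higher (log2 0.49, SE 0.06, adjusted p = 3.62e-07). HMGA2 had 940, 985 and 1022 CPM in the knockdown and 684, 667 and 684 CPM in siControl RAS. It was 1.45-fold higher (log2 0.53, SE 0.06, adjusted p = 5.48e-09), and its call, like that of HMGA1, held in all alternatives run for this comparison. As a share of the control mean, HMGA1 stood at 53.2% in the knockdown and 37.9% in siControl RAS. HMGA2 stood at 60.8% in the knockdown and 42.0% in siControl RAS.

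The knockdown calls on HMGB2 and HMGB3 rested on few tags and on single libraries. HMGB2 had 8.53, 14.7 and 9.03 CPM in the knockdown, against 5.31, 5.06 and 6.95 CPM in siControl RAS. The groups did not overlap, with replicate 2 the highest knockdown library, and HMGB2 was 1.88-fold higher (log2 0.91, SE 0.26, adjusted p = 0.015). Without knockdown replicate 2 the log2 value was 0.61 (adjusted p = 0.174), and the call was also lost without siControl RAS replicate 1 (0.85, adjusted p = 0.0647) or replicate 2 (0.83, adjusted p = 0.0629). HMGB3 had 21.7, 11.9 and 11.8 CPM in the knockdown and 6.95, 12.2 and 6.77 CPM in siControl RAS. These libraries overlapped, with knockdown replicate 1 the highest and siControl RAS replicate 2 above the other 2 knockdown libraries, and the fitted difference was 1.75-fold (log2 0.81, SE 0.26, adjusted p = 0.0313). Without knockdown replicate 1, the library that stood apart, the HMGB3 value was 0.47 (adjusted p = 0.29). Without siControl RAS replicate 1 it was 0.67 (adjusted p = 0.157), and without replicate 3 it was also 0.67 (adjusted p = 0.136). With limma-voom, HMGB2 had an adjusted p of 0.0793 and HMGB3 of 0.0723, and with only the groups compared in the fit these were 0.0757 and 0.0948. With the 3 libraries that stood apart on the fourth component left out, HMGB3 gave 0.68 (adjusted p = 0.108), and HMGA1, HMGA2 and HMGB2 kept their calls.

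The other 6 members were not called in the knockdown. HMGB1 had 291, 275 and 306 CPM in the knockdown, overlapping its siControl RAS libraries at 321, 297 and 283 CPM. Its 95% interval on the log2 scale was -0.22 to 0.12, and its copy HMGB1P5 gave 0.11 (SE 0.09, adjusted p = 0.487). HMGN2 had 151, 136 and 142 CPM in the knockdown and 134, 134 and 142 CPM in siControl RAS, with an interval of -0.10 to 0.23. HMGN2 thus stayed at 19.6% of the control mean in the knockdown and 18.7% in siControl RAS. HMGN1 had an interval of -0.23 to 0.12 and HMGN3 of -0.10 to 0.64. HMGN4 and HMGN5 were too low for a narrow bound, with intervals of -1.16 to 0.69 and -0.46 to 0.78. Against control, with the knockdown libraries entering both comparisons, 8 members were called lower in the knockdown, where 16.7% of all genes were called lower. They ranged from HMGB2 at log2 -2.75 (SE 0.23) to HMGN1 at log2 -0.48 (SE 0.09).

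**Figure D3:**
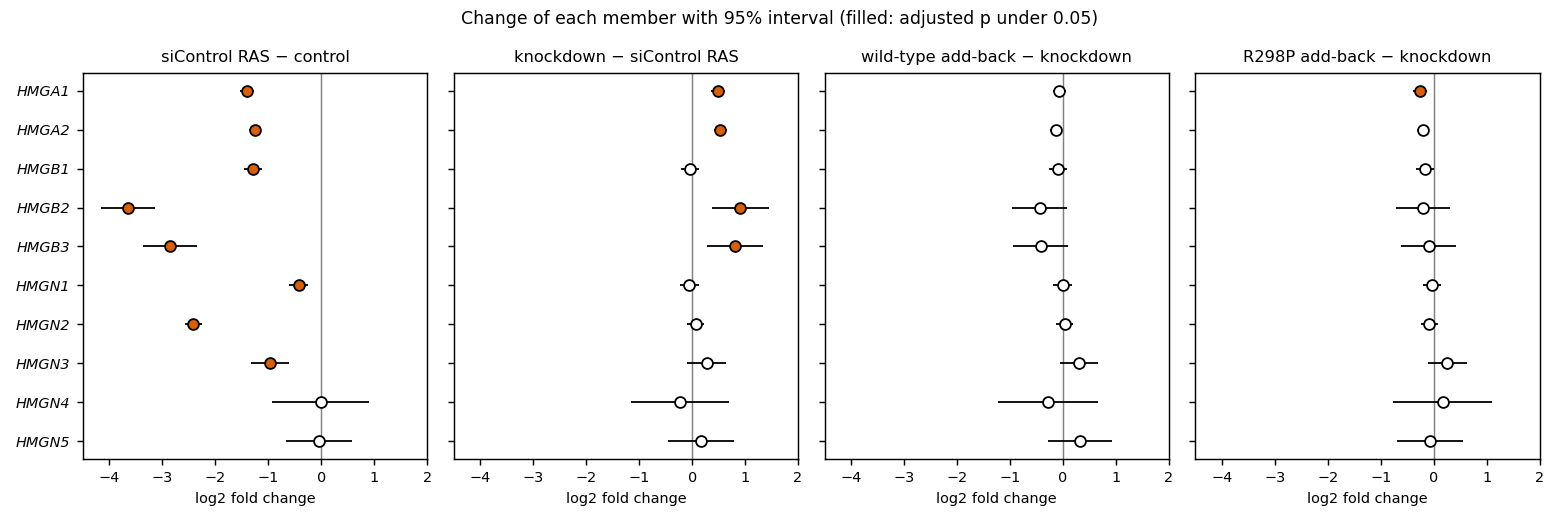
Log2 fold change of each member (points) with its 95% interval (bars) in 4 comparisons on the same linear axis, siControl RAS minus control, knockdown minus siControl RAS, wild-type add-back minus knockdown and R298P add-back minus knockdown. Filled points have an adjusted p under 0.05 over 13516 genes, 8, 4, 0 and 1 of 10 members from left to right, and the comparisons share groups.

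Few member differences passed the test when METTL14 was added back. In the wild-type add-back against the knockdown 0 of 10 members were called, and 1 had an unadjusted p under 0.05 (edgeR's quasi-likelihood test, with 0 calls by DESeq2 and by limma-voom as well). Of all genes, 0.621% were called in this comparison and 7.55% had an unadjusted p under 0.05. That member was HMGA2, with 913, 915 and 875 CPM in the wild-type add-back, against 940, 985 and 1022 CPM in the knockdown. Every wild-type library was below every knockdown library, but the log2 value of -0.12 (SE 0.06) did not pass (adjusted p = 0.595). HMGA1 had 900, 870 and 909 CPM in the wild-type add-back, within the knockdown range of 852 to 1002 CPM. HMGB2 had 5.66, 8.68 and 9.39 CPM and HMGB3 9.3, 9.28 and 15 CPM in the wild-type add-back, and their log2 intervals against the knockdown were -0.96 to 0.08 and -0.95 to 0.10.

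In the R298P add-back against the knockdown 1 of 10 members was called, HMGA1, where 0.555% of all genes were called lower. HMGA1 had 757, 817 and 770 CPM in the R298P add-back and 955, 852 and 1002 CPM in the knockdown. The groups did not overlap, and HMGA1 was 1.2-fold lower (log2 -0.26, SE 0.06, adjusted p = 0.0253). The call was lost without knockdown replicate 1 (-0.25, adjusted p = 0.0673) or replicate 3 (-0.21, adjusted p = 0.209), and without R298P replicate 1 (-0.24, adjusted p = 0.147) or replicate 3 (-0.25, adjusted p = 0.105). It was also lost with only the groups compared in the fit (-0.26, adjusted p = 0.137), and with the 3 libraries that stood apart on the fourth component left out (-0.25, adjusted p = 0.116). HMGA2 had 871, 863 and 809 CPM in the R298P add-back, below all 3 knockdown libraries at 940 to 1022 CPM, with a log2 value of -0.21 (SE 0.06, adjusted p = 0.0534). Without knockdown replicate 1, which stood apart, the HMGA2 value was -0.24 (adjusted p = 0.0309). HMGA1, HMGA2 and HMGB1 were the 3 members whose R298P libraries all lay below the knockdown, as did 7.35% of all genes. For HMGB1 this holds on its own row alone. With its pseudogene rows added it had 695, 719 and 853 CPM in the R298P add-back, overlapping 840, 777 and 772 CPM in the knockdown.

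No member passed the test between the mutant and wild-type add-backs. In the R298P against the wild-type add-back 0 of 10 members were called and 1 had an unadjusted p under 0.05 (edgeR's quasi-likelihood test, 0 calls by DESeq2 and by limma-voom), where 0.0222% of all genes were called and 4.92% had an unadjusted p under 0.05. That member was HMGA1, at 757, 817 and 770 CPM in the R298P add-back, against 900, 870 and 909 CPM in the wild-type add-back. Its libraries did not overlap, with a log2 value of -0.19 and an interval of -0.32 to -0.07 (adjusted p = 0.762). HMGA2 lay 1.06-fold lower in the R298P add-back, with an interval of -0.20 to 0.03 (log2). The transgenes themselves differed in level, as given above for METTL14, and the part of this in the HMGA1 values was not tested.

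Both add-backs stayed above siControl RAS for the HMGA genes. These comparisons share the siControl RAS libraries with each other and with the knockdown comparison. In the R298P add-back 3 members were called higher than in siControl RAS, where 6.27% of all genes were, and in the wild-type add-back 3 members were called higher, where 6.32% of all genes were. HMGA1 was 1.17-fold higher in the R298P add-back (log2 0.23, SE 0.06, adjusted p = 0.0129) and 1.34-fold higher in the wild-type add-back (log2 0.42, SE 0.06, adjusted p = 6.79e-06). HMGA2 was 1.25-fold higher in the R298P add-back (log2 0.32, adjusted p = 7.96e-05) and 1.33-fold higher in the wild-type add-back (log2 0.41, adjusted p = 1.42e-06). HMGN3 had 38.8, 46.0 and 27.8 CPM in the R298P add-back and 33.7, 46.4 and 36.3 CPM in the wild-type add-back, against 23.4, 25.5 and 29.8 CPM in siControl RAS. R298P replicate 3 overlapped siControl RAS. HMGN3 was 1.44-fold higher in the R298P add-back (log2 0.52, SE 0.18, with an adjusted p at the threshold of 0.05) and 1.49-fold higher in the wild-type add-back (log2 0.57, SE 0.18, adjusted p = 0.0302).

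These smaller calls moved with single libraries. In the R298P comparison without siControl RAS replicate 1, only HMGA2 was called, HMGA1 had 0.21 (adjusted p = 0.054) and HMGN3 had 0.45 (adjusted p = 0.19). HMGA1 also lost its call there without siControl RAS replicate 2 (0.20, adjusted p = 0.0797) or R298P replicate 2 (0.19, adjusted p = 0.0879). HMGN3 lost it without siControl RAS replicate 2 (0.51, adjusted p = 0.13), R298P replicate 1 (0.50, adjusted p = 0.129) or R298P replicate 2 (0.35, adjusted p = 0.329). DESeq2 gave this HMGN3 difference an adjusted p of 0.0725, and limma-voom 0.0515. In the wild-type comparison HMGN3 lost its call without siControl RAS replicate 1 (0.49, adjusted p = 0.135) or replicate 2 (0.56, adjusted p = 0.0888), or wild-type replicate 2 (0.42, adjusted p = 0.207).

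Against control, 8 members were called lower in the R298P add-back, where 17.3% of all genes were, and 7 in the wild-type add-back, where 17.2% were. The member medians were -1.05 (log2) in the R298P and -0.91 in the wild-type add-back. HMGN3 made the difference in count, at log2 -0.45 (adjusted p = 0.0431) in the R298P add-back and -0.40 (adjusted p = 0.074) in the wild-type add-back, and this says nothing of a difference between them. The R298P call of HMGN3 was lost without control replicate 2 (-0.42, adjusted p = 0.106) or replicate 3 (-0.42, adjusted p = 0.111). It was lost without R298P replicate 1 (-0.47, adjusted p = 0.0774) or replicate 3 (-0.28, adjusted p = 0.274), or with the 3 libraries apart on the fourth component left out (-0.26, adjusted p = 0.287). DESeq2 did not call it either (-0.45, adjusted p = 0.0776). The wild-type HMGN3 value was called lower with library totals alone (-0.49, adjusted p = 0.0254). It was also called with only the groups compared (-0.39, adjusted p = 0.0375) and without wild-type replicate 2 (-0.55, adjusted p = 0.0317).

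Ordered by mean level, control came first for 9 members, HMGN5 being the exception, and the neighbour below control differed from it for 7 of these 9 (all but HMGN3 and HMGN4). Below control, HMGA1 and HMGA2 shared the order knockdown, wild-type add-back, R298P add-back, siControl RAS, in which the neighbouring R298P add-back and siControl RAS differed. For the remaining members no neighbours among the 4 RAS groups differed beyond the test. HMGA1 and HMGA2 followed each other closely, with a Pearson correlation of log2 CPM of 0.982 over 15 libraries and 0.920 over the 12 RAS libraries. HMGB1 and HMGN2 correlated at 0.973 over 15 libraries but 0.214 over the 12 RAS libraries. The libraries share normalisation and the split between control and RAS, so these are descriptions.

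The genes most like each member were looked for among 6628 genes of at least 20 CPM on average, by Pearson correlation over the 15 libraries. For HMGA1 they were ATP2B4 (0.989), PRC1 (0.989) and NOL11 (0.986), and for HMGA2 ASPM (0.992), VIM (0.990) and NR2F2 (0.989). For HMGB1 they were KIF20B (0.986), RAN (0.979) and LSM5 (0.975), and for HMGB2 PCLAF (0.984), RRM2 (0.982) and C12orf75 (0.980). HMGB3 was most like SCARA3 (0.982), ARHGAP11A (0.969) and STMN1 (0.969). HMGN2 was most like TUBA1B (0.992), RAN (0.991) and EBNA1BP2 (0.990), although within the 12 RAS libraries RAN gave -0.22. HMGN1 was most like SDHA (0.943), ATL1 (0.939) and HNRNPD (0.931), and HMGN3 most like RPS16 (0.933), LASP1 (0.899) and FGD4 (0.897). HMGN4 and HMGN5 had no close match, with DRG2 at 0.702 and TRAPPC8 at 0.806 as their highest. Over the 12 RAS libraries alone some other matches were much weaker. RAN gave 0.46 with HMGB1, TUBA1B 0.40 with HMGN2 and ATL1 0.27 with HMGN1. The matches named for HMGA1 and HMGA2 gave 0.930 to 0.974 there.

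Lists of related genes place the members among their neighbours. Proliferation genes moved with the HMG genes in RAS cells: all 8 were called lower in siControl RAS against control, with a median of -3.85 (log2), where 21.9% of all genes were called lower and 24% higher. They include MKI67 (-4.79), CCNA2 (-4.63), CDK1 (-4.21) and TOP2A (-3.92). In siControl RAS, CCNA2 averaged 1.93 ± 0.688 CPM and CDK1 3.40 ± 2.25 CPM, so their folds rest on few tags. The part of the proliferation genes in the HMG values was not tested. The knockdown had 5 of these 8 called higher than siControl RAS, with a median of 0.86, among them MKI67 (2.00), CCNA2 (1.38), TOP2A (0.93) and CCNB1 (0.84). CCNB1 was called lower again in the wild-type add-back against the knockdown (-0.76, SE 0.17, adjusted p = 0.0154). Of 24 other HMG-box genes tested, 10 were called lower and 7 higher in siControl RAS against control (median -0.23). SOX4 (2.23) and SOX5 (1.90) were higher and SOX11 (-1.91) and SOX9 (-1.67) lower, all being developmental transcription factors. Of the same 24, 5 were called lower and 4 higher in the knockdown against siControl RAS (median -0.11), where 8.06% of all genes were called lower and 7.47% higher, with SOX11 at 0.76, SOX5 at -0.71, SOX4 at -0.60 and TOX2 at -0.50.

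Tags counted on most genes of linker histones, which compete with HMG proteins for nucleosomes, fell in RAS cells. Histone messages that 3′ end sequencing does not capture are not seen here, so total linker histone RNA was not measured. Of 7 tested in siControl RAS against control, 5 were called lower and 2 higher (median -2.84). Of all genes, 21.9% were called lower and 24% higher (median -0.0037). H1-5 averaged 0.621 ± 0.299 CPM in siControl RAS against 21.4 ± 0.686 CPM in control, and H1-1 0.105 ± 0.0932 CPM against 8 ± 2.78 CPM, on too few tags in RAS cells for a fold. H1-4 (log2 -3.46) and H1-3 (-2.84) fell as well, H1-4 to 1.79 ± 0.253 CPM in siControl RAS, on few tags. H1-10 (0.63), a replication-independent form, was called higher. It averaged 181 ± 26.5 CPM in siControl RAS against 117 ± 10.6 CPM in control, far above the falling genes named here. The median thus does not describe the sum of linker histone tags. Against siControl RAS, H1-4 was higher in the knockdown (1.47), while H1-10 (-0.62) was lower. H1-1 was called higher there at 1.46 ± 1.44 CPM in the knockdown, against 0.105 ± 0.0932 CPM in siControl RAS.

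The list for senescence-associated heterochromatin foci holds histone chaperone genes and not only components of the foci. Of its 18 genes tested, 7 were called lower and 3 higher in siControl RAS against control (median -0.35). Of all genes, 21.9% were called lower and 24% higher. The histone chaperone genes ASF1B (log2 -2.90) and CHAF1A (-1.51) fell, and CHAF1B averaged 0.772 ± 1.34 CPM in siControl RAS against 5.97 ± 3.40 CPM in control. ATRX (1.16), a chromatin remodeller, rose. Called higher in the knockdown against siControl RAS were 2 of the 18, MACROH2A2 (0.93) and CBX5 (0.24, the gene of heterochromatin protein 1 alpha), a share near the 7.47% of all genes. Of 12 genes of HMGB1 release and redox state, 6 were called lower and 2 higher in siControl RAS against control (median -0.38), with the acetyltransferase gene KAT2B (-1.14), HMOX1 (-1.04) and the thioredoxin reductase gene TXNRD1 (-0.91) lower and CASP1 (1.33) higher. The 4 called higher in the knockdown against siControl RAS were KAT2B (1.62), the DNA damage sensor PARP1 (0.54), TXNRD1 (0.50) and PRDX1 (0.27). KAT2B averaged 2.72 ± 0.831 CPM in siControl RAS, so its folds rest on few tags. In the wild-type add-back against the knockdown TXNRD1 was called lower (-0.42, SE 0.10).

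Few HMGB1 receptors were measured. Of 9 listed, 8 were matched and 2 passed the filter on low counts. SDC1, a heparan sulphate proteoglycan, averaged 27.1 ± 7.31 CPM in siControl RAS against 75.4 ± 5.76 CPM in control, was called lower there (log2 -1.48) and higher in the knockdown against siControl RAS (0.47). For the let-7 and IGF2BP genes that act on the HMGA2 message, 2 of 10 tested were called lower and 2 higher in siControl RAS against control (median -0.24), near the 21.9% and 24% of all genes. DROSHA (-1.16) and IGF2BP3 (-0.81) were lower, and IGF2BP2 (0.68) and DICER1 (0.38) higher. Between knockdown and siControl RAS 0 of the 10 were called and 2 had an unadjusted p under 0.05 (edgeR's quasi-likelihood test, 0 calls by DESeq2 and by limma-voom). Of all genes, 15.5% were called there and 26.5% had an unadjusted p under 0.05. IGF2BP3, which binds and stabilises HMGA2 RNA, was called lower in the R298P add-back against the knockdown (-0.38, SE 0.09, adjusted p = 0.0233).

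**Figure D4:**
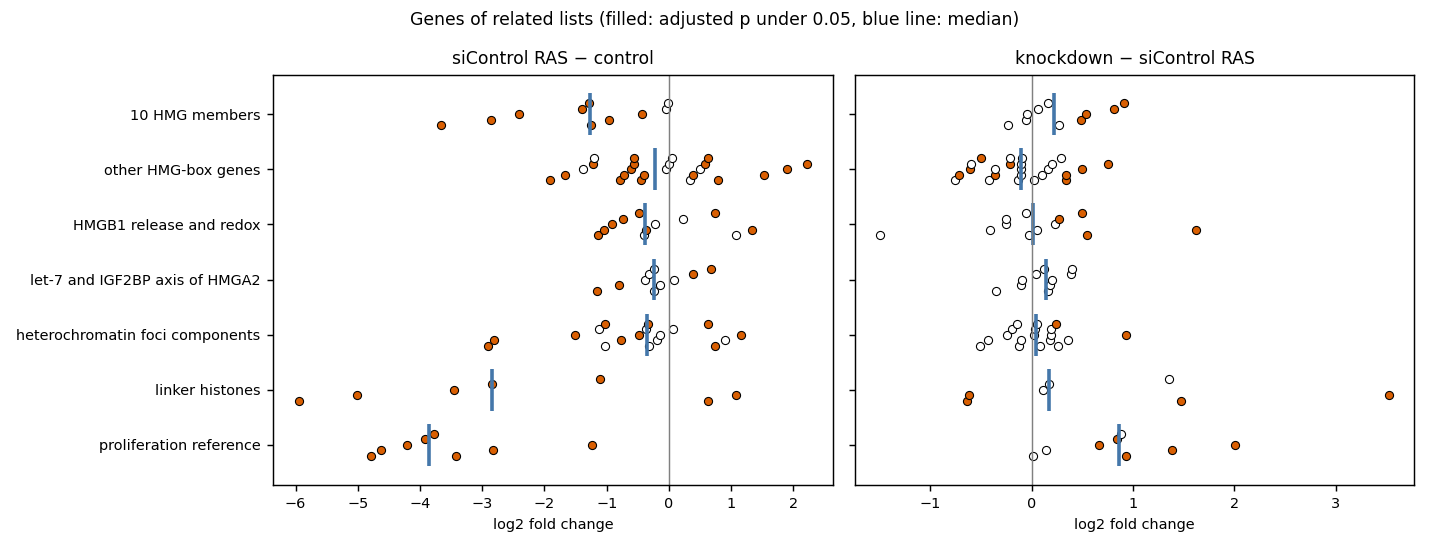
Log2 fold changes of the 10 HMG members and of 6 lists of related genes, 1 point per gene tested, for siControl RAS minus control (left) and knockdown minus siControl RAS (right), on linear axes of different range. Filled points have an adjusted p under 0.05 and blue lines are medians, which for the proliferation genes were -3.85 on the left and 0.86 on the right, against -1.27 and 0.22 for the HMG members.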

How the data were processed

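RNA was measured by 3′ end sequencing (Lexogen QuantSeq, per the labels' protocols) in 15 libraries. The authors deposited 1 table of counts per Ensembl gene, not normalised, and every value is a whole number. The submitters' processing notes name Bowtie2, RSEM 1.2.12 and hg19, with no account of their roles. Neither the strand setting nor the annotation is given. Isoforms with a common 3′ end are not told apart by such tags.

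Gene symbols came from GENCODE 29 and a symbol table, for 90.6% of the Ensembl IDs. All libraries were fitted in 1 model of 5 group means in edgeR 4.0.16 (R 4.3.3), with TMM factors, filterByExpr and a robust quasi-likelihood F test (two-sided, 10 residual degrees of freedom). The call threshold was an adjusted p under 0.05, and the biological coefficient of variation 16.7%. Alternatives used DESeq2 1.42.0, limma 3.58.1 (voom), other scaling factors, no filter, a replicate block, only the groups compared, libraries left out in turn, and pseudogene counts added to members. The fit was tested on simulated data for siControl RAS against control over 13180 genes. It called 93.3% of genes set 2 log2 units lower, 56.5% of those set 1 lower and 0.077% of unchanged genes. Of genes set higher, it called 82% at 2 log2 units and 58% at 1. Smaller changes were not simulated.

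Members and lists were chosen with earlier results of these data known. All members are described; named related genes are the up to 4 called genes of a list with the largest absolute change, and the 3 genes most like each member. Exceptions are CBX5, MACROH2A2, H1-10 and TXNRD1, named after their values were seen. A further listed gene is not reported here. Replicate numbers are given by the labels without saying what they share, so libraries were treated as unpaired. Over 30 pairs of libraries with the same number, deviations from group means correlated at -0.0805 to 0.0983. These low values do not show that pairing is absent. Replicate 3 of siControl RAS and of both add-backs stood together on the fourth principal component. Intervals cover counting and replicate error as fitted, and no molecular identifiers are stated.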

Additional observations from a re-analysis of the deposited data

How the results depend on the processing

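Of 42 member differences that were called, 672 values under alternatives kept the direction in all cases, and 37 of them lost the call. Of 58 that were not called, 928 alternative values gave 14 calls and 57 changes of sign, 0 of them called. The count of 4 members called in the knockdown against siControl RAS became 2 with limma-voom and with only the groups compared, and ranged from 2 to 4 over left-out libraries. The count of 1 in the R298P add-back against the knockdown became 2 with upper-quartile factors, library totals alone, DESeq2, limma-voom and the replicate block, and 0 with only the groups compared or with the third libraries of siControl RAS and both add-backs left out together, an alternative chosen after seeing the data, and ranged from 0 to 1 over left-out libraries. The added member was HMGA2, at log2 -0.22 with upper-quartile factors and library totals, and -0.21 in the other 3. The count of 3 in the R298P add-back against siControl RAS became 5 with library totals alone and ranged from 1 to 3 over left-out libraries. The cause of these changes was not tested. The replicate block changed no other member call. What the numbers share is not stated, with 8 of 15 libraries correlating best with their own number.

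Signs turned for values without a call. In the knockdown against siControl RAS, HMGB1 gave 0.031 with library totals, 0.046 with pseudogene counts added and -0.0861 to 0.0065 over left-out libraries. HMGN1 gave 0.024 with library totals and 0.018 with pseudogene counts added. HMGN4 gave 0.077 with limma-voom and -0.57 to 0.61 over left-out libraries. In siControl RAS against control, left-out libraries moved HMGN4 over -0.85 to 0.33 and HMGN5 over -0.27 to 0.11. With the third libraries left out, HMGN5 gave 0.12 there and HMGN4 0.61 in the knockdown against siControl RAS.

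Counts for the related lists moved by over 1.5 times in 92 of 1050 alternative values. In the knockdown against siControl RAS, proliferation genes called became 3 in place of 5 and linker histones 2 in place of 4 with limma-voom. Calls in the foci list ranged from 0 to 4 in place of 2 in that comparison. Library totals alone called 2 let-7 and IGF2BP genes in place of 0. Depth limits HMGN4, HMGN5, HMGB2 and HMGB3, whose RAS libraries hold few tags.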
